A study of Mus musculus with 18 samples.

Results

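GM and MDP, both fragments of the bacterial cell wall, were set against each other in mouse macrophages labelled as TLR4 knockouts. The comparison used 6 of the 18 libraries of the series, the 3 labelled TLR4 knockout and GM and the 3 labelled TLR4 knockout and MDP, chosen by their labels alone. All 6 came from bone marrow derived macrophages of TLR4-knockout C57BL/6J mice, grown out of marrow in medium carrying L929 supernatant, which supplies M-CSF, the growth factor of macrophages. On day 7 the cells received GM (the disaccharide GlcNAc-MurNAc) or MDP (labelled MurNAc-D-Ala-L-Gln) for 24 h in IMDM without serum. The series also holds knockout cells given water and wild-type C57BL/6J cells given water, GM or MDP, with 3 libraries in each group. Replicates are labelled biological, but whether each is another mouse or another culture is not stated, nor are the doses or the knockout allele. P-values therefore reflect only how far these libraries vary, in which technical variation may have a part, and GM and MDP may not have been given at matched doses.

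TLR4 is the surface receptor through which macrophages sense lipopolysaccharide, and it signals through MYD88 and TRIF to NF-kB and to interferon genes. NOD2 is a cytosolic sensor of muramyl dipeptide that recruits the kinase RIPK2 and also ends in NF-kB, which drives cytokines, chemokines and inducible nitric oxide synthase. Both compounds contain MurNAc: GM carries GlcNAc and no peptide, whereas MDP carries a dipeptide and no GlcNAc. The muramyl dipeptide known as a NOD2 ligand is MurNAc-L-Ala-D-isoGln, a spelling other than the one in the labels, and the count data cannot settle which molecule was used. The series is titled around GM as a TLR4 agonist, so the knockout cells ask how the GM and MDP transcriptomes differ once TLR4 is lost.

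Tlr4 checks the labels (ENSMUSG00000039005, GRCm39 chr4:66745821-66848521). Its level, in CPM (counts scaled to a common library size, with TMM factors), was 39.5, 39 and 36.5 in the GM knockout libraries, 48.2, 48.6 and 49.2 in the MDP knockout libraries and 52, 52.9 and 46.3 in the water knockout libraries. In wild-type cells it was 179 to 192 with GM, 117 to 131 with MDP and 149 to 229.5 in water, so every knockout library lay below every wild-type library. Reads remained in the knockout, and because the deleted stretch is not given, gene-level counts do not show whether they come from outside it. Total counts were 18932825 to 21128507 in the GM libraries and 15950022 to 18771084 in the MDP libraries, so depth and compound moved together without overlap, and its part in the results was not tested. Mitochondrial genes took 3.13% to 3.36% of counts with GM and 2.96% to 3.16% with MDP. No pair of replicates held identical values, and each pair differed by more than sampling noise.

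Over the 9 knockout libraries the MDP libraries stood apart from the rest on the main axis of variation. In a principal component analysis of 1000 genes, chosen as the most variable, component 1 took 51.6% of the variance and placed the MDP libraries at 13.8 to 19.2, the GM libraries at -7.23 to -5.67 and the water libraries at -11.6 to -8.55. On this axis GM lay next to water. Component 2 took 13.5% and set GM (-8.94 to -5.79) and water (5.07 to 8.51) at opposite ends, with MDP between them (-0.399 to 4.04). The water libraries serve as a reference level and were not tested against either compound here.

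Of 14195 genes tested, 2513 (17.7%) differed between GM and MDP in knockout cells by edgeR's quasi-likelihood test with Benjamini-Hochberg adjustment (threshold 0.05). The calls were split into 1189 genes higher with GM (8.38%) and 1324 lower with GM (9.33%). Most were small, with a median absolute log2 fold change of 0.353 among the genes called. The large differences were mostly toward MDP: 234 genes were lower with GM by at least 2-fold against 64 higher (2.1% of genes in all), 685 differed by at least 1.5-fold (4.83%), and 33 were lower by at least 4-fold against 1 higher, the weakly expressed Zfyve28 (1.42 CPM with GM and 0.184 with MDP, named after its values were seen). The 3 libraries of each group did not overlap for 4689 genes (33%), so separate groups alone are common here. The biological coefficient of variation was 6.27%. When the same contrast was taken from a fit of all 18 libraries, 242 genes passed (67 higher, 175 lower), and 656 passed when tested against a change of 1.2-fold in the 6 libraries. Of the 85 genes described here that passed, 31 also passed in the fit of all 18 libraries and 54 did not. Their log2 fold changes hardly moved between the 2 fits, for example 0.98 and 0.99 for Nqo1 and -1.70 and -1.69 for Cxcl3. The 31 were Arg1, Ccl22, Ccnd2, Ccr7, Cd40, Cd80, Cfb, Cxcl16, Egr2, Emp1, Herc6, Il12b, Il1b, Il6, Inhba, Ldha, Lif, Lrrc14b, Mmp2, Nos2, Pfkfb3, Plau, Pparg, Slc1a2, Slc40a1, Slc7a2, Susd2, Synpo2, Tlr2, Tnfsf15 and Usp18. Among the 54 were Nqo1, Gclm, Cat, Top2a, Ccna2, Ccnd1, Lpl, Ptgs2, Cxcl2 and Cxcl3.

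**Figure D1:**
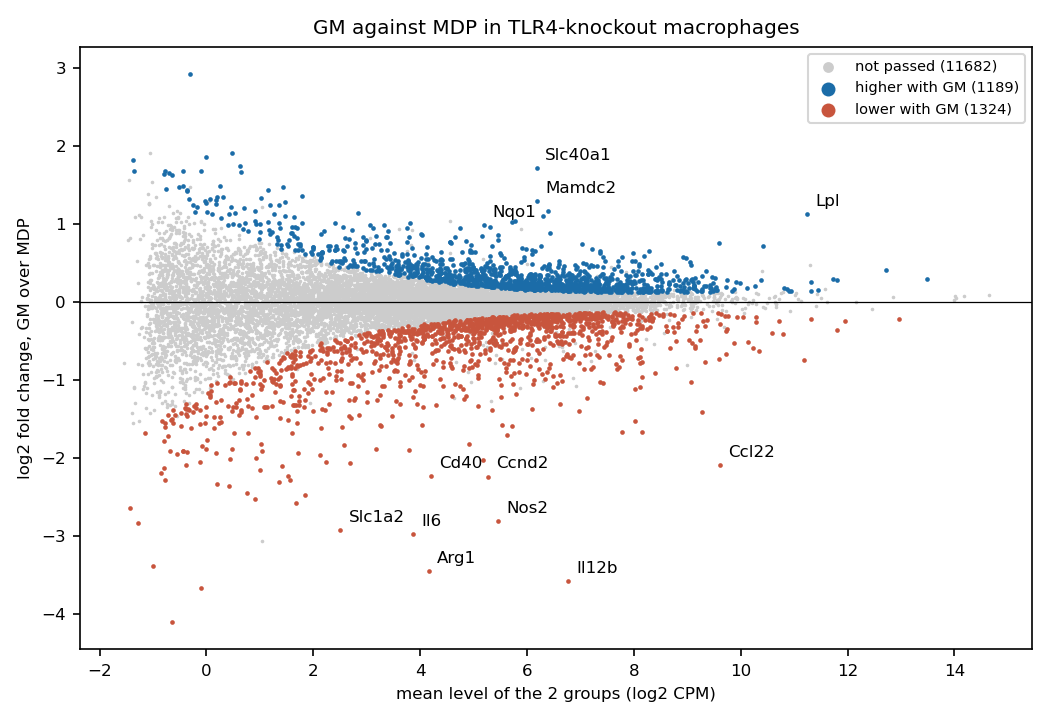
Each point is 1 of the 14195 genes tested, with the mean level of the GM and MDP knockout groups in log2 CPM on the horizontal axis and the log2 fold change of GM over MDP on the vertical axis. Blue points passed and were higher with GM (1189), red points passed and were lower (1324), and the labelled genes show that the red side reaches beyond -3 while among labelled genes Slc40a1 is the highest at 1.72.

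Cytokines, nitric oxide and arginine enzymes and a co-stimulatory receptor led the largest differences, all lower with GM. Il12b, the shared subunit of interleukins 12 and 23 (ENSMUSG00000004296, GRCm39 chr11:44290890-44304860), read 13.8, 17.3 and 19.4 CPM with GM and 149, 239.5 and 215 with MDP, against 9.88 to 12.5 in water. The groups did not overlap and the gene was 11.9-fold lower with GM (log2 fold change -3.58, SE 0.27, adjusted p = 0.0018). Il6, an acute-phase cytokine (ENSMUSG00000025746, GRCm39 chr5:30218112-30224979), read 3.63, 3.06 and 3.23 CPM with GM and 21.2, 28 and 28.5 with MDP. The GM libraries sat among the water libraries (2.99 to 3.72 CPM), and the difference was 7.86-fold (log2 fold change -2.97, SE 0.14, adjusted p = 1.9e-19). Il1b, the precursor of interleukin 1 beta (ENSMUSG00000027398, GRCm39 chr2:129206490-129213059), read 144, 129 and 135 CPM with GM and 333, 409 and 418 with MDP (log2 fold change -1.52, SE 0.09, adjusted p = 3e-05). Here all 3 GM libraries lay above the water libraries (74.4 to 80 CPM) and below all 3 MDP libraries.

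Tnf, which encodes tumour necrosis factor (ENSMUSG00000024401, GRCm39 chr17:35418357-35420983), did not follow these cytokines. It read 75.1, 70.9 and 78.1 CPM with GM and 69.4, 64.6 and 83.5 with MDP, and the MDP libraries spanned the GM ones. The log2 fold change was 0.04 (SE 0.08, 95% interval -0.13 to 0.21, edgeR adjusted p = 0.81), and larger differences lie outside that interval. Without MDP replicate 2 its sign turned, to -0.04. Of the 17 inflammatory cytokine genes tested, 11 were lower with GM, 2 were higher and 4 did not pass. The share called was 76.5%, beside 17.7% of all genes, and the median log2 fold change was -0.673, beside 0.0043. The lower members included Lif, a cytokine of the interleukin 6 family (1.43, 0.815 and 0.806 CPM with GM, 4.49, 5.77 and 4.49 with MDP, log2 fold change -2.28, SE 0.26, adjusted p = 1.4e-08), Tnfsf15, a TNF family ligand (-2.02, adjusted p = 3.6e-07), and Il1a (-0.55, adjusted p = 2.2e-09). The 2 higher members were small changes: Csf1, the macrophage growth factor (0.24, adjusted p = 0.0023), and Il1rn, the interleukin 1 receptor antagonist (0.16, adjusted p = 0.013), whose call was lost on leaving out GM replicate 2 (adjusted p = 0.0586), GM replicate 3 (0.14) or MDP replicate 2 (0.0765).

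Chemokines went the same way. Of 18 tested, 14 were lower with GM, none was higher (1 at an unadjusted p below 0.05, none by DESeq2) and 4 did not pass, with a median of -0.770. The share called was 77.8%, beside 17.7% of all genes. Ccl22, a ligand of CCR4 (ENSMUSG00000031779, GRCm39 chr8:95472218-95478327), read 259.6, 296 and 333 CPM with GM, 1067, 1347 and 1362 with MDP and 305 to 367 in water, so the GM libraries lay within or below the water range and the MDP libraries above both (log2 fold change -2.09, SE 0.16, adjusted p = 0.0016). The neutrophil attractant Cxcl3 read 21.8, 22.8 and 25 CPM with GM and 69.4, 73.8 and 82 with MDP (log2 fold change -1.70, SE 0.07, adjusted p = 1.7e-20). Cxcl2, its neighbour on chromosome 5, read 19.9, 18.3 and 19.4 CPM and 45.3, 49.8 and 49.8 CPM (log2 fold change -1.34, SE 0.08, adjusted p = 1.2e-16). Cxcl16 was lower by less (-0.56, adjusted p = 4.6e-12), from 643 to 709 CPM with MDP to 445 to 479 with GM.

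The sequences just upstream of these genes are shown because NF-kB binding upstream of cytokine and chemokine genes is a known route to their induction. The 250 bases before the RefSeq transcription start are given for 4 genes lower with GM and for 1 gene higher with GM, all on the plus strand, from RefSeq's GRCm38.p6, a build other than the GRCm39 of the gene positions above. They are Il6 at chr5:30012864-30013113, Cxcl2 at chr5:90903649-90903898, Cxcl3 at chr5:90785851-90786100, Ccl22 at chr8:94745434-94745683 and Gclm, a glutathione synthesis gene described below, at chr3:122245307-122245556. Capitals mark matches on either strand to GGGANNNNCC (an NF-kB motif) in the first 4 and to TGACNNNGC (the antioxidant response element) in Gclm. In Il6, Cxcl2 and Cxcl3 a match on each strand overlaps the other by all but 1 base. The genes were picked by hand, and only promoters that held the motif are printed, so a match in each was fixed in advance.
Il6: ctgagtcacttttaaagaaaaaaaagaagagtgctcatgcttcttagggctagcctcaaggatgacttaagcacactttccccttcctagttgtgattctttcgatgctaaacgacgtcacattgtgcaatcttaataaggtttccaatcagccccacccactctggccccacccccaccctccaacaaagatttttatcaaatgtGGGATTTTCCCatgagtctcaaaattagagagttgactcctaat
Cxcl2: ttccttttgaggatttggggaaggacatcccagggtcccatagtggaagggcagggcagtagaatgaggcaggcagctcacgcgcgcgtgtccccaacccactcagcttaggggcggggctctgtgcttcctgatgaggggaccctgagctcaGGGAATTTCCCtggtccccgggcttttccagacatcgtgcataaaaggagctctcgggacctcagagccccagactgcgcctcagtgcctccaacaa
Cxcl3: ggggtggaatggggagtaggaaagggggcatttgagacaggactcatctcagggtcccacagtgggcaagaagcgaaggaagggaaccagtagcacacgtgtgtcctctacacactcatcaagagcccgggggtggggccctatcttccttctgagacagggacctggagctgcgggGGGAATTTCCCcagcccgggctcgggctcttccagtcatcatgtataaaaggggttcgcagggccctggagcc
Ccl22: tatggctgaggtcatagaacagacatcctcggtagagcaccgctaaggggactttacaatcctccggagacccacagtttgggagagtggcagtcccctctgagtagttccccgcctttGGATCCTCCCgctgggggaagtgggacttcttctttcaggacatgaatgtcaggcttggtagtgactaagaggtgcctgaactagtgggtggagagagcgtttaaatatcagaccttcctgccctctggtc
Gclm: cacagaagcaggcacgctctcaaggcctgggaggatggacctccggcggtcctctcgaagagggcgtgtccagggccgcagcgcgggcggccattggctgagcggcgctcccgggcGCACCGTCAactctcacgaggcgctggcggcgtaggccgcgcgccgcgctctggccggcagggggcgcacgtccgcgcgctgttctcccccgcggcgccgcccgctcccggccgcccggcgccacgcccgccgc

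These letters are common. Of the 10095 tested genes with a promoter in the table, 25.9% held the NF-kB motif in those 250 bases at 1 or more starts, as did 29.5% of the 910 called higher with GM and 27.6% of the 1013 called lower. Among genes lower by at least 2-fold the share was 35.4% of 158, and among genes higher by at least 1.5-fold, a looser limit, 30.7% of 137. The antioxidant motif was held by 13.9% of all, 17.4% of those called higher and 13.7% of those called lower, and by 21.9% and 11.4% of the higher and lower sets with those fold limits. Over all 32851 promoters in the table, counted per promoter and not per gene, the shares were 17.6% and 10.2%. A match is a description of the letters and was not tested as a site.

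Among 26 genes for NF-kB subunits, targets and brakes, 19 were lower with GM, 1 was higher and 6 did not pass (median -0.264). The share called was 76.9%, beside 17.7% of all genes. Cd40, a co-stimulatory receptor (ENSMUSG00000017652, GRCm39 chr2:164897547-164914868), read 5.72, 6.16 and 7.44 CPM with GM and 24.7, 31.6 and 34.5 with MDP. The MDP libraries were separate from the GM and water libraries (4.47 to 6.43 CPM in water), and the difference was 4.69-fold (log2 fold change -2.23, SE 0.13, adjusted p = 8.4e-14). Ptgs2, the inducible cyclooxygenase of prostaglandin synthesis, read 13, 12 and 14.9 CPM with GM and 48.6, 44 and 48.4 with MDP (log2 fold change -1.82, SE 0.09, adjusted p = 2.8e-19). Sod2, the mitochondrial superoxide dismutase, differed by less (-0.38, adjusted p = 2.5e-08), and the 1 higher member was Tnfaip2 (0.24, adjusted p = 0.00014). The T cell co-stimulators Cd80 (-0.90, adjusted p = 1.4e-09) and Cd86 (-0.67, adjusted p = 5.1e-08) were lower with GM too. Among the other genes with the largest differences were Ccnd2, the cell cycle protein cyclin D2 (13.1, 13.1 and 14.2 CPM with GM, 57.9, 67.9 and 64.4 with MDP, -2.24, adjusted p = 1.8e-23), and Cfb, factor B of the alternative complement pathway (1.93 to 3.07 CPM against 8.8 to 11.8, -2.06, adjusted p = 1.8e-11). Weakly expressed genes in that group were Slc1a2, a glutamate transporter (0.869 to 2.04 CPM against 8.56 to 11.1, -2.92), Susd2 (-1.90) and the actin-binding Synpo2 (-1.89).

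**Figure D2:**
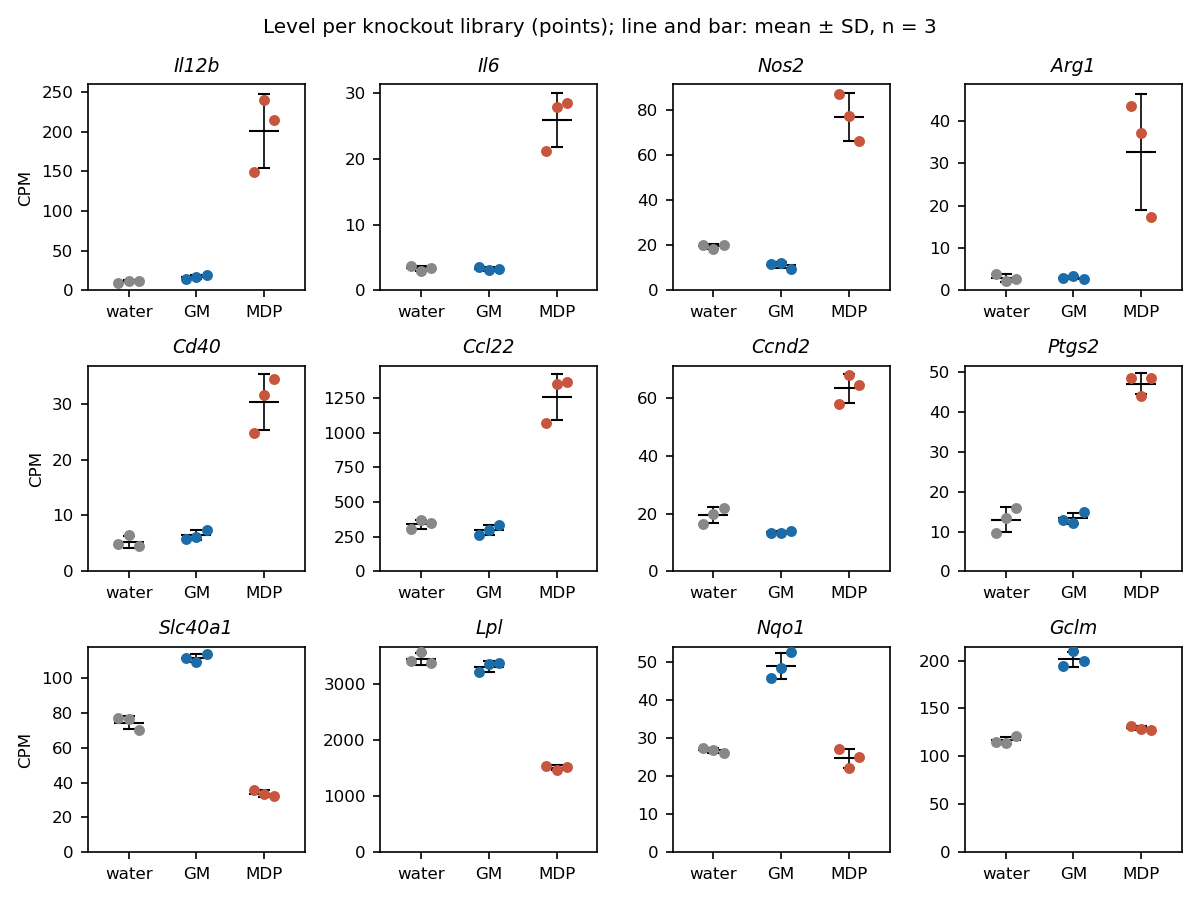
Level in CPM of 12 genes in each of the 9 knockout libraries (points), by treatment on the horizontal axis, with the mean and SD of the 3 libraries. For Il6 the GM libraries (3.06 to 3.63 CPM) lie among the water libraries and below the MDP libraries (21.2 to 28.5), whereas for Slc40a1 and Nqo1 the GM libraries lie above both other groups.

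Nos2 and Arg1, which both consume arginine, and the arginine transporter Slc7a2 were lower with GM. Nos2, inducible nitric oxide synthase (ENSMUSG00000020826, GRCm39 chr11:78811613-78851080), read 11.7, 12.1 and 9.59 CPM with GM, 87.2, 77.3 and 66.1 with MDP and 20, 18.3 and 20.3 in water. All GM libraries were below all water libraries and all MDP libraries above them, with a 6.98-fold difference between the compounds (log2 fold change -2.80, SE 0.11, adjusted p = 1.6e-10). Arg1, arginase 1 (ENSMUSG00000019987, GRCm39 chr10:24791119-24803382), read 2.96, 3.41 and 2.69 CPM with GM and 43.7, 37.2 and 17.3 with MDP. The MDP values varied over more than 2-fold, and although the groups were far apart (log2 fold change -3.45, SE 0.49, adjusted p = 0.014) the call was lost with limma's voom (adjusted p = 0.0599) and on leaving out any 1 GM library (0.0653, 0.072 and 0.0763) or MDP replicate 2 (0.0559). Slc7a2, which carries arginine into the cell, read 128, 141 and 139.6 CPM with GM and 448, 436 and 403 with MDP (log2 fold change -1.66, SE 0.05, adjusted p = 1.9e-25). Arg2, the mitochondrial arginase, differed by less (-0.36), and Ass1, which takes part in arginine synthesis, did not pass (-0.11, edgeR adjusted p = 0.109); both were named after their values were seen. Within the 28 antimicrobial and metabolic effectors tested, 15 were lower with GM, 3 higher and 10 did not pass (median -0.333). Calls made up 64.3% of them, beside 17.7% of all genes. Acod1, which makes itaconate, read 604, 579 and 554 CPM and 930.4, 977 and 965 CPM (-0.73, adjusted p = 1.7e-15). Clec4e, a receptor for mycobacterial glycolipid (-0.84), Lcn2, a siderophore-binding protein (-0.79), and Hp, haptoglobin (-0.96), were lower with adjusted p of 2e-16, 3.6e-08 and 6.3e-07. The scavenger receptor Marco was higher with GM (201, 221 and 197 CPM against 125, 158 and 131, log2 fold change 0.57, SE 0.09, adjusted p = 0.002), and both compounds lay above water (62.1 to 85.4 CPM).

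Of the sensors, Nod2 (ENSMUSG00000055994, GRCm39 chr8:89373943-89415102) was lower with GM. It read 16.9, 16.9 and 16.4 CPM with GM, 22.1, 23.1 and 20.9 with MDP and 16.9 to 17.4 in water, so only the MDP libraries stood above the rest (log2 fold change -0.40, SE 0.09, adjusted p = 0.0017). Ripk2, its kinase (ENSMUSG00000041135, GRCm39 chr4:16122733-16163647), read 22.1, 23.4 and 23.7 CPM and 25.4, 26.6 and 28.8 CPM and missed the threshold (log2 fold change -0.23, SE 0.08, adjusted p = 0.057, 95% interval -0.40 to -0.06); it passed with a filter at 1 CPM (adjusted p = 0.0478) and without MDP replicate 1 (0.0405). Nod1, the sensor of peptides that contain diaminopimelic acid (ENSMUSG00000038058, GRCm39 chr6:54900934-54949597), did not pass (-0.15, 95% interval -0.36 to 0.06, adjusted p = 0.36 by edgeR). Of the 23 NOD pathway genes tested, 6 were lower with GM, 3 higher and 14 did not pass (median -0.070). Calls made up 39.1% of them, beside 17.7% of all genes. The ubiquitin ligases Birc2 (-0.40, adjusted p = 0.00013) and Rnf31 (-0.34, adjusted p = 0.0011) were lower. Endolysosomal carriers split: Slc15a3 was lower (-0.23, adjusted p = 0.0002), whereas Slc15a4 (0.26, adjusted p = 0.00057) and Slc46a3 were higher with GM. Slc46a3 read 18.7, 17.2 and 17.3 CPM with GM and 11.8, 9.32 and 11.6 with MDP, below 23.6 to 28.5 in water (log2 fold change 0.70, SE 0.11, adjusted p = 1.2e-05). Nagk, the N-acetylglucosamine kinase that also phosphorylates MDP, was higher with GM too (0.24, adjusted p = 0.0021).

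Of 28 Toll-like receptor pathway genes, 6 were lower with GM, 2 higher and 20 did not pass (median -0.072). The share called was 28.6%, beside 17.7% of all genes. Cd14, the co-receptor that hands lipopolysaccharide to TLR4, read 365, 339 and 361 CPM with GM, 679, 780.4 and 695 with MDP and 264 to 289 in water, a rank order of MDP, GM and water with no overlap (log2 fold change -1.02, SE 0.05, adjusted p = 2e-17). Tlr2, the receptor for bacterial lipopeptides, read 459, 461 and 435 CPM and 662, 669 and 692 CPM (-0.58, adjusted p = 6.1e-13). The residual Tlr4 reads differed too (-0.35, adjusted p = 9.3e-05). The 2 higher members were Cd180, a TLR4 relative without a signalling domain (182 to 185 CPM against 128 to 144, 0.46, adjusted p = 3.6e-09), and Tlr13, a sensor of bacterial ribosomal RNA (0.30, adjusted p = 4.3e-06).

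Interferon-stimulated genes were lower with GM as a group, with 80% of those tested called, beside 17.7% of all genes. Of 40 tested, 32 were lower and none higher (none at an unadjusted p below 0.05 or by DESeq2 either), 8 did not pass, and the members ranged from -1.605 to -0.362 with a median of -0.849. Their summed level was 1977 to 2647 CPM in the GM libraries, 3507 to 4026 in the MDP libraries and 2450 to 2798 in water, so the GM range reached below the water range and overlapped it. Usp18, a brake on interferon receptor signalling, read 48.1, 39.4 and 43.5 CPM with GM and 79.4, 85.1 and 82.3 with MDP (log2 fold change -0.92, SE 0.06, adjusted p = 6.6e-14). Herc6 (-0.84, adjusted p = 7.4e-11) and the RNA sensor Ifih1 (-0.54, adjusted p = 7.3e-09) were lower as well. Several genes of this list have near-identical copies, among which reads could be split. Of 18 MHC class I and immunoproteasome genes, 12 were lower and none higher (median -0.299, 66.7% called). Examples were the peptide-loading factor Tapbp (-0.37, adjusted p = 8.6e-08) and the immunoproteasome subunit Psmb8 (-0.35, adjusted p = 2.2e-06). The 13 MHC class II genes were split, with 3 higher, 4 lower and 6 not passing (median 0.068, 53.8% called).

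Glycolytic and hypoxia-inducible genes had the highest share of calls among the lists (92%). Of 25 tested, 23 were lower with GM, none was higher and 2 did not pass, with a median of -0.523. Ldha, lactate dehydrogenase A, read 701, 627 and 627 CPM with GM, 1035, 1088 and 966 with MDP and 799.8, 691 and 755 in water (log2 fold change -0.67, SE 0.05, adjusted p = 2.7e-12). The phosphofructokinase Pfkl read 131, 115 and 121 CPM and 200.2, 203 and 179 CPM (-0.67, adjusted p = 9.7e-12). Pfkfb3, which makes the activator of that enzyme, was -0.58 (adjusted p = 9.9e-12), and the angiogenic factor Vegfa read 50.3 to 61.2 CPM against 96.6 to 114 (-0.99, adjusted p = 1.1e-07). The respiratory chain and ATP synthase genes held few calls: 3 of 29 were higher, 2 lower and 24 did not pass (median 0.044), a share of 17.2% beside 17.7% for all genes.

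**Figure D3:**
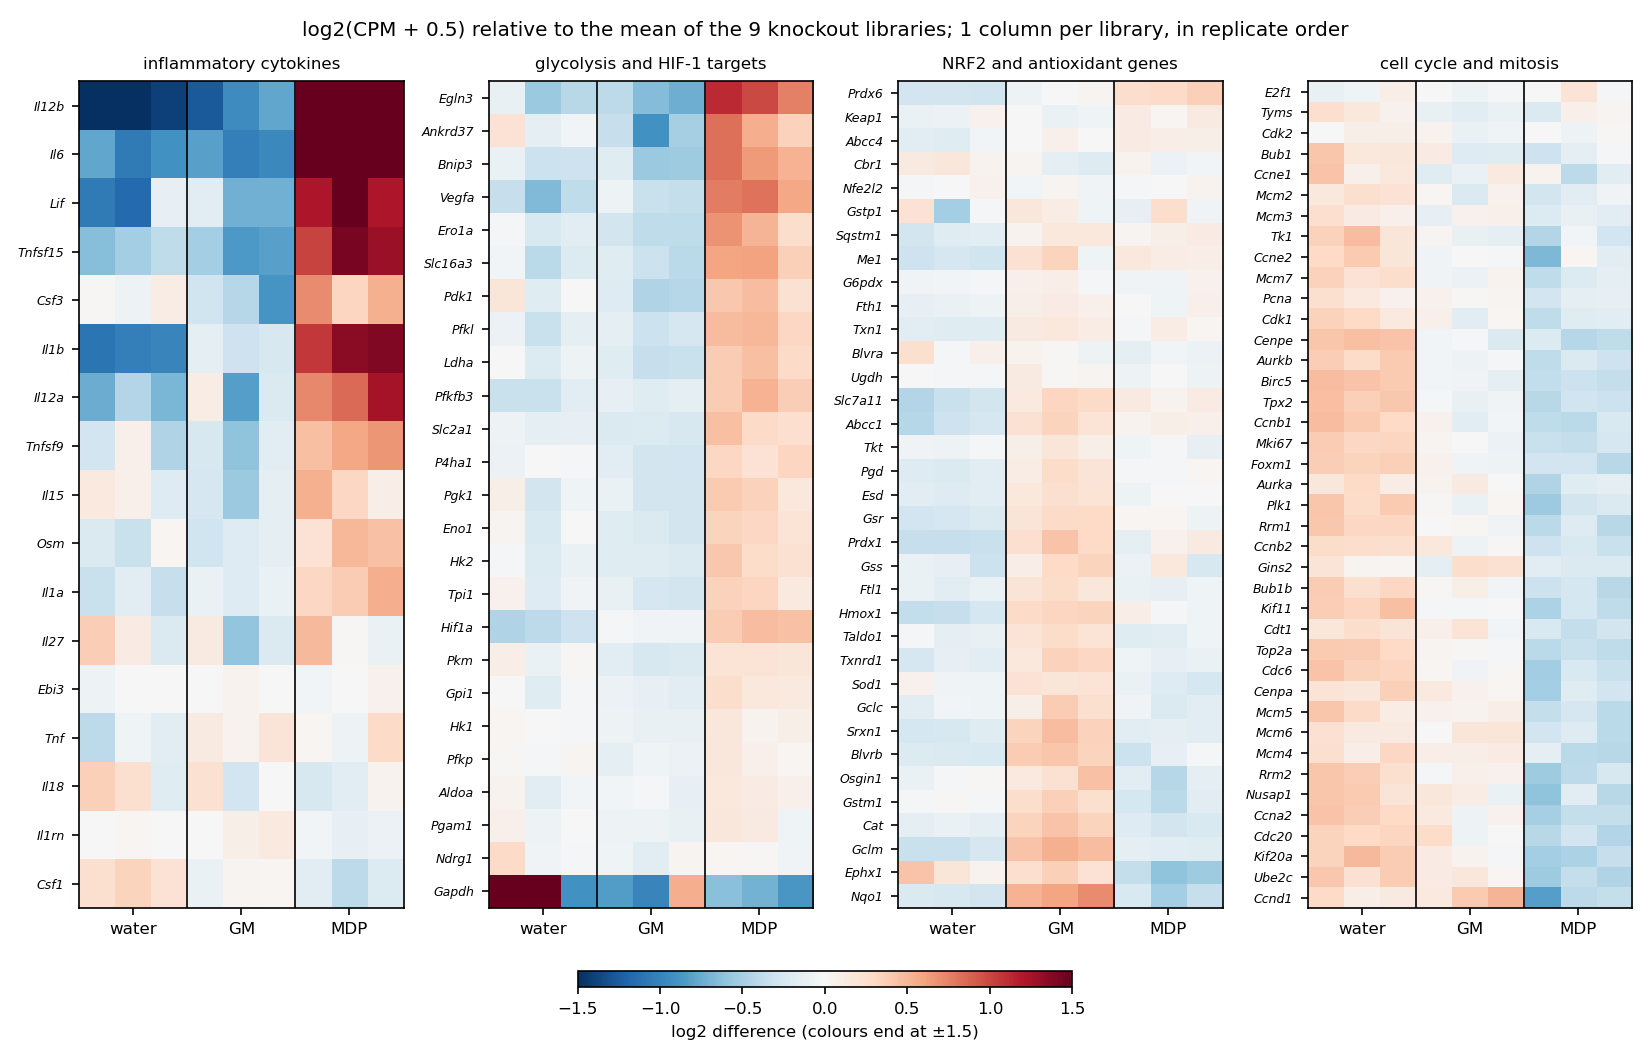
Each row is a tested member of 1 of 4 gene lists and each column 1 of the 9 knockout libraries, and colour gives log2(CPM + 0.5) relative to the gene's mean over those libraries (red above, blue below). Cytokine and glycolytic rows are mostly red in the 3 MDP columns, antioxidant rows mostly red in the 3 GM columns, and cell cycle rows mostly run from red in water to blue with MDP.

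The iron exporter gene Slc40a1 had the largest difference among the described genes higher with GM, and most antioxidant and iron genes were higher by less. Slc40a1, which encodes ferroportin (ENSMUSG00000025993, GRCm39 chr1:45947228-45965683), read 111, 109 and 114 CPM with GM, 35.8, 33.3 and 32 with MDP and 76.9, 76.3 and 69.9 in water. The 3 groups did not overlap: GM was the highest, MDP the lowest, and the difference was 3.29-fold (log2 fold change 1.72, SE 0.06, adjusted p = 9.9e-24). Of 22 heme, iron and ferritin genes tested, 13 were higher with GM, 1 lower (Lcn2) and 8 did not pass (median 0.193). The share called was 63.6%, beside 17.7% of all genes. Blvrb, biliverdin reductase B, read 209, 214 and 203 CPM and 128, 146 and 156 CPM (0.53, adjusted p = 9.1e-08), and the heme carrier Slc48a1 was 0.45 (adjusted p = 1.2e-09). NRF2 is the transcription factor that acts through the antioxidant response element. Of 35 NRF2 and antioxidant genes, 22 were higher with GM, 2 lower and 11 did not pass (median 0.216, 68.6% called). Nqo1, a quinone reductase, read 45.9, 48.4 and 52.6 CPM with GM, 27.1, 22.1 and 25 with MDP and 26.1 to 27.4 in water (log2 fold change 0.98, SE 0.08, adjusted p = 1.4e-12). Gclm, the modifier subunit of the enzyme that begins glutathione synthesis, read 195, 209.8 and 199.5 CPM, 132, 129 and 127 CPM and 114 to 121 CPM in the same order (log2 fold change 0.63, SE 0.05, adjusted p = 2.9e-13). Catalase (Cat) was 0.59 (adjusted p = 6.7e-13). For these 3 genes the GM libraries lay above both other groups.

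Most lipid-associated macrophage genes were higher with GM than with MDP, whereas other lists of lipid and lysosomal genes were split or held few calls. Lpl, lipoprotein lipase (ENSMUSG00000015568, GRCm39 chr8:69333143-69360100), read 3204, 3357 and 3366 CPM with GM, 1545, 1462 and 1514 with MDP and 3413, 3560.5 and 3364 in water, so MDP alone stood apart (log2 fold change 1.13, SE 0.05, adjusted p = 4e-21). Lipa, the lysosomal acid lipase, read 947, 1007 and 969 CPM and 592, 562 and 571 CPM (log2 fold change 0.75, SE 0.04, adjusted p = 4.4e-16), with water between them at 832 to 852 CPM. The proton pump subunit Atp6v0d2 was 0.58 (adjusted p = 4.9e-12). Of 20 lipid-associated macrophage genes tested, 14 were higher, 1 lower and 5 did not pass (median 0.198, 75% called). The broader lysosomal list was split evenly, 7 higher and 7 lower of 31 (median 0.033, 45.2% called). Of 33 cholesterol and fatty acid synthesis genes, 7 were higher and none lower and 26 did not pass (median 0.047, a share of 21.2% beside 17.7% for all genes), the higher ones including Hmgcs1 (0.40, adjusted p = 8.5e-08). Of 16 LXR targets 2 were higher, 2 lower and 12 did not pass (median 0.016, 25% called).

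**Figure D4:**
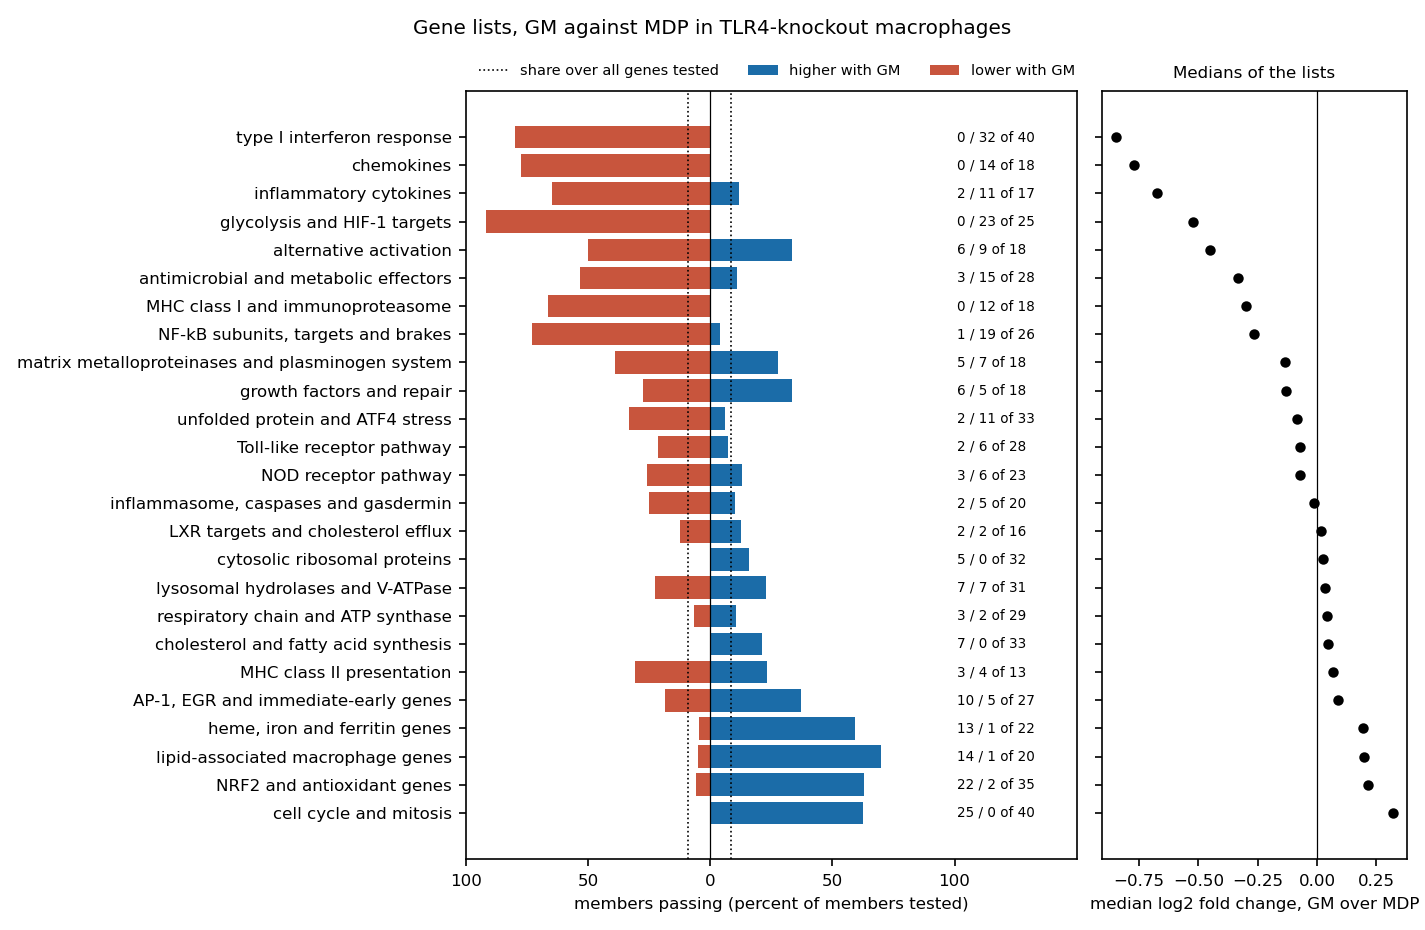
For each of 25 gene lists the left panel gives the percent of tested members that passed higher (right of 0, blue) or lower (left of 0, red) with GM, with counts at the right edge and dotted lines at the shares over all genes (8.38% and 9.33%), and the right panel gives the list's median log2 fold change of GM over MDP. The interferon list (-0.849) and the chemokines (-0.770) have the lowest medians and the cell cycle list (0.321) the highest.

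Cell cycle genes were higher with GM than with MDP, and their summed level was below water with both. Of 40 tested, 25 were higher, none lower and 15 did not pass (median 0.321). The share called was 62.5%, beside 17.7% of all genes. The sum was 1662 to 1709 CPM with GM, 1303 to 1402 with MDP and 1979 to 2099 in water, with no overlap between the 3 groups. Top2a, topoisomerase II alpha, read 157, 154 and 150.2 CPM with GM and 115, 121 and 117 with MDP, against 188 to 201 in water (log2 fold change 0.38, SE 0.05, adjusted p = 8.5e-08). Ccna2, cyclin A2, read 57.5, 49.2 and 54.5 CPM and 36.7, 40.4 and 40.4 CPM (0.45, adjusted p = 3.7e-06). Ccnd1, cyclin D1, was higher with GM (11.9 to 15.4 CPM against 5.79 to 8.2, 0.91, adjusted p = 3.9e-06), opposite in direction to Ccnd2.

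Genes of alternative activation and tissue remodelling did not share a direction. Of 18 alternative activation genes tested, 6 were higher with GM and 9 lower (median -0.452). The share called was 83.3%, beside 17.7% of all genes. Mrc1, the mannose receptor, read 309.7, 317 and 298 CPM with GM and 236, 203 and 202 with MDP, both below water at 411 to 432 CPM (log2 fold change 0.52, SE 0.05, adjusted p = 3.6e-09). The transcription factors Egr2 (0.72, adjusted p = 1.1e-09) and Pparg (0.60, adjusted p = 0.00013) were higher, whereas Irf4 (-0.79, adjusted p = 3.5e-10) and the transglutaminase Tgm2 (-0.59, adjusted p = 5e-12) were lower, as were Arg1 and Ccl22 above. In the protease list 5 of 18 were higher and 7 lower (median -0.133, 66.7% called). Plau, the urokinase plasminogen activator, read 103, 115 and 117 CPM and 65.4, 53.7 and 61.3 CPM (log2 fold change 0.89, SE 0.07, adjusted p = 3.2e-10), and the gelatinase Mmp2 was lower (-0.70, adjusted p = 2.9e-14). Of 18 growth factors 6 were higher and 5 lower (median -0.132, 61.1% called). Inhba, the activin A subunit, read 167, 186 and 178 CPM and 369, 373 and 385 CPM (log2 fold change -1.09, SE 0.05, adjusted p = 1.9e-20), and the matrix protein Thbs1 was -0.75 (adjusted p = 5.5e-07).

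The other genes among the 12 largest in the GM direction, counting protein-coding genes with a mean of at least 5 CPM and groups that did not overlap, differed by 1.99-fold to 2.46-fold. Itgb3, integrin beta 3, read 101, 128 and 118 CPM with GM and 56.3, 42.2 and 56.5 with MDP (log2 fold change 1.16, SE 0.16, adjusted p = 0.011). Mamdc2 read 101, 111 and 98.1 CPM and 51.7, 36.3 and 37.6 CPM, both below water at 129 to 176 (log2 fold change 1.30, SE 0.16, adjusted p = 0.0056). Angptl2, a secreted angiopoietin-like protein, read 66.1, 76.5 and 79.9 CPM and 37.4, 30.2 and 40.5 CPM, with water at 69.9 to 77.3 (log2 fold change 1.04, SE 0.11, adjusted p = 0.00023). Emp1, an epithelial membrane protein (1.02), Ggt5, a gamma-glutamyltransferase (0.99), Treml4, a TREM family receptor (0.99), Plet1 (1.01) and Lrrc14b (1.01) completed the group with adjusted p of 5.2e-14, 4e-07, 2.6e-06, 3.3e-05 and 5.3e-05. Klk1b11 (1.10, adjusted p = 0.0095) and Adgre4 (1.14, adjusted p = 0.00044) belong to families of close copies and are uncertain, and the Klk1b11 call was lost without MDP replicate 2 (adjusted p = 0.0563).

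Of 33 unfolded protein and ATF4 stress genes, 11 were lower with GM, 2 higher and 20 did not pass (median -0.083), a share of 39.4% called. Of 20 inflammasome genes 5 were lower and 2 higher (median -0.013, 35% called), and of 27 AP-1, EGR and immediate-early genes 10 were higher and 5 lower (median 0.087, 55.6% called). Of 32 ribosomal protein genes 5 were higher and none lower (median 0.024), a share of 15.6%, below the 17.7% of all genes.

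All 21 macrophage identity genes passed the filter on low counts, at levels from 9.26 CPM with GM for C1qa to 1145 for the M-CSF receptor Csf1r, 4590 for Mpeg1 and 26370 for Lyz2, which monocytes and neutrophils express too. The 21, with Lyz2 as the greater part, summed to 37270 to 41910 CPM with GM and 36900 to 38580 with MDP, with 8 higher, 3 lower (Cd14 among them) and a median of 0.110. Monocyte markers moved with the compound: 5 of 12 were lower with GM and none higher (median -0.517), and their summed level was 1690 to 2031 CPM with GM, 2329 to 2635 with MDP and 1585 to 1736 in water. Dendritic cell markers summed to 828 to 971.3 CPM with GM and 991.2 to 1127 with MDP, and 3 of 9 were lower and 1 higher. The lower ones included Ccr7, a homing receptor of activated dendritic cells and macrophages (146, 161 and 184 CPM with GM, 298, 395 and 369 with MDP, log2 fold change -1.12, SE 0.15, adjusted p = 0.012), whose call was lost without GM replicate 2 (adjusted p = 0.0651) or MDP replicate 3 (0.0567). Osteoclast markers summed to 936 to 1028 CPM with GM and 790.6 to 839.4 with MDP (3 higher and 3 lower of 7), mast cell and basophil markers to 43.54 to 47.5 and 50.15 to 69.7 (2 of 8 lower) and stromal markers to 31.09 to 34.55 and 41.89 to 43.77 (1 of 7 lower). The shares called were 52.4% of macrophage, 41.7% of monocyte, 44.4% of dendritic cell and 85.7% of osteoclast markers, beside 17.7% of all genes. Shares of the mast cell and basophil markers (25%) and stromal markers (14.3%) lay near that of all genes. None of 11 neutrophil, 8 lymphoid or 4 erythroid and megakaryocyte markers passed by edgeR or DESeq2. Of them 2, 1 and 2 had an unadjusted p below 0.05 by edgeR, as did 4087 of all 14195 genes. Ly6g, Elane, Xcr1, Siglech, Cd3e, Ncr1 and Hba-a1, defining genes of neutrophils, dendritic cell subsets, T cells, natural killer cells and red cells, were too low to be tested. In bulk RNA, fewer cells of a type and less RNA per cell cannot be told apart, and the part of the monocyte and dendritic cell markers in the cytokine, chemokine and interferon results was not tested.

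For Il6, Nos2, Ptgs2, Il1b and Il12b the same contrast in wild-type cells ran the other way. Arg1 kept its sign, and over all genes called in knockout the signs were split. The wild-type GM group held 1 library, replicate 2, that stood apart from the other 2: Gclm read 554, 154 and 565 CPM, Slc40a1 463, 147 and 318 CPM and Il6 113, 55.8 and 137 CPM in replicates 1, 2 and 3. The difference between GM and MDP itself differed by genotype for 2345 of 15001 genes (15.6%) by edgeR's interaction test, 1154 above 0 (7.69%) and 1191 below 0 (7.94%). Without that library 4582 genes passed. Of the 2513 genes called in knockout cells, 1000 were among the 2345. Over all 2513 the sign in wild type was the opposite for 1406 (55.9%), beside 52.3% of all 14195 genes tested.

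Il6 read 113, 55.8 and 137 CPM with GM and 4.76, 6.51 and 4.14 with MDP in wild type (log2 fold change 4.28), against -2.97 in knockout, a difference of -7.25 (SE 0.46, adjusted p = 6.4e-06). Nos2 read 142, 72.5 and 179 CPM and 5.36, 3.33 and 4.46 CPM in wild type (4.89 against -2.80, a difference of -7.68, SE 0.45, adjusted p = 4.2e-06). Ptgs2 differed by -6.78 (SE 0.41, adjusted p = 4.9e-06), Il1b by -5.53 (SE 0.36, adjusted p = 7.6e-06) and Il12b by -5.27 (SE 0.43, adjusted p = 4e-05). In wild type all 3 GM libraries of these 5 genes lay above all 3 MDP libraries, and in knockout all 3 lay below. Groups without overlap, in either direction, were found in knockout for 33% of all genes tested, and the share in wild type was not counted. Tnf, which did not pass in knockout, read 84.9, 59.4 and 86.2 CPM with GM and 18, 16.1 and 16.4 with MDP in wild type and differed by -2.13 (SE 0.19, adjusted p = 1.9e-05). Top2a ran from 0.38 in knockout to -1.53 in wild type, a difference of 1.91 (SE 0.55, adjusted p = 0.043).

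For other genes the genotype difference did not pass. Slc40a1 had log2 fold changes above 0 in both genotypes (1.72 in knockout, 1.02 in wild type, difference 0.70, SE 0.43, adjusted p = 0.3). Nqo1 was 0.98 in knockout and 2.05 in wild type (difference -1.06, SE 0.54, adjusted p = 0.21), and Gclm 0.63 and 2.18 (difference -1.55, SE 0.51, adjusted p = 0.068). Without wild-type GM replicate 2 the difference passed for Nqo1 (-1.46, adjusted p = 1.16e-05) and Gclm (-1.95, adjusted p = 6.13e-12), which were then higher with GM by more in wild type. Usp18 was below 0 in both genotypes (-0.92 and -0.50, difference -0.42, SE 0.18, adjusted p = 0.13), and so was Arg1 (-3.45 and -1.68, difference -1.77, SE 0.62, adjusted p = 0.075). The wild-type GM libraries spread widely, as the values above show, so a miss here does not show that the genotypes acted alike.

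**Figure D5:**
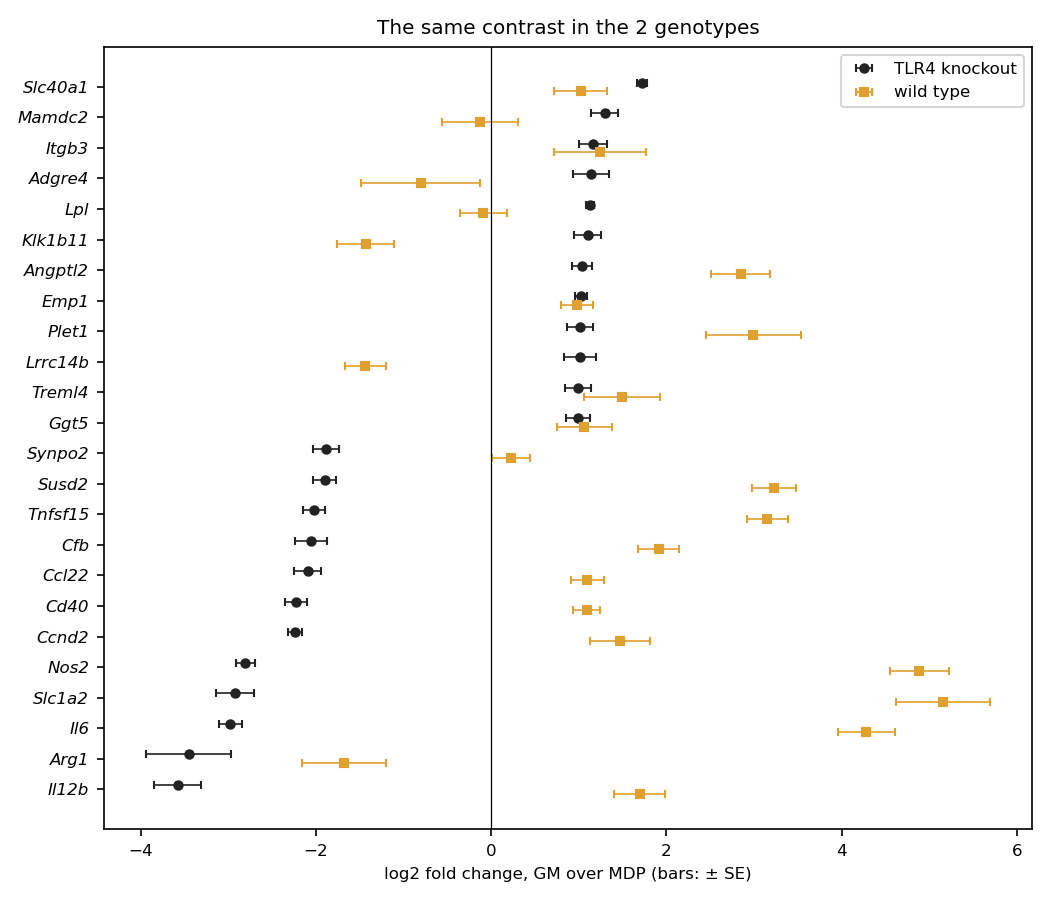
Log2 fold change of GM over MDP (± SE) for the 24 genes with the largest differences in knockout cells (12 in each direction, protein coding, mean at least 5 CPM, groups not overlapping), in knockout (dark circles) and wild-type (yellow squares) macrophages. Il6, Nos2 and Slc1a2 lie on opposite sides of 0 in the 2 genotypes, whereas Slc40a1 (1.72 and 1.02) and Emp1 (1.02 and 0.98) lie on the same side.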

How the data were processed

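Per the submitters' processing notes, reads were aligned to mouse build GRCm39 with HISAT2 2.0.5 and featureCounts 1.5.0-p3 counted them over genes. Strand use, annotation release and handling of shared reads are not given in the sources used here. The authors deposited raw counts per gene for 18 libraries, and these were used. A second deposited table in a length-normalized unit was not used.

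Counts of the 6 knockout GM and MDP libraries were tested with edgeR 4.0.16 (R 4.3.3): filterByExpr (minimum count 10), TMM scaling, robust quasi-likelihood 2-sided F tests, Benjamini-Hochberg over all genes tested, threshold 0.05. The genotype difference was the interaction in the 12 GM and MDP libraries. The procedure was also run on counts simulated from the mean levels and dispersions of these libraries. Such counts cannot speak to depth or to the origin of the replicates. Levels are CPM on the TMM scale of all 18 libraries, and fold changes come from the fits. Alternatives were RLE scaling, other filters, DESeq2 1.42.0, limma 3.58.1 voom, more libraries, a replicate block and leaving out each library.

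Named genes were the 12 largest called changes in each direction (protein coding, mean at least 5 CPM, groups not overlapping), members with the smallest p in each list (at most 3 a direction), and Tlr4, Nod1, Nod2, Ripk2, Il6, Il1b, Il12b, Tnf and Nos2. Members and lists were chosen with earlier results of these data known. Promoters came from RefSeq (GRCm38.p6), which matched 106 of the 148 genes the rule names. The text describes 88 of the 148, and items withheld from this text are not reported here.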

Additional observations from a re-analysis of the deposited data

Results flagged for a closer look

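For 52 of the 88 genes tested by name, the GM against MDP difference itself differed between knockout and wild-type cells by edgeR's interaction test over 12 libraries (adjusted p below 0.05). Over all genes 2345 of 15001 (15.6%) passed. Most of the 88 were named for differences in these same knockout libraries, which also enter the interaction, so their count does not stand for all genes. Signs in the 2 genotypes were opposite for 54 of the 88 (61.4%), beside 52.3% of all 14195 genes tested. Values are the log2 fold change of GM over MDP in knockout minus that in wild type. All 52 passed with the same sign without wild-type GM replicate 2, the library of its group that stood apart, and 69 of the 88 then passed.

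Cytokines and chemokines all lay below 0: Il6 -7.25, Il1b -5.53, Il12b -5.27, Tnfsf15 -5.17, Cxcl2 -4.80, Cxcl3 -4.78, Il1a -4.28, Lif -3.50, Ccl22 -3.19, Inhba -3.11 and Tnf -2.13. Effector and arginine genes did too: Nos2 -7.68, Ptgs2 -6.78, Slc7a2 -4.47, Cfb -3.97, Clec4e -3.64, Lcn2 -2.64, Acod1 -1.95, Marco -1.75, Sod2 -1.59 and Hp -0.96. Among receptors and co-stimulators the values were Cd40 -3.32, Cd14 -2.39, Cd80 -2.23, Cd86 -1.81, Ripk2 -1.16, Tlr2 -1.08, Tlr4 -0.89, Nod1 -0.72 and Ccr7 -0.63, and above 0 Slc15a4 0.37, Tlr13 0.52, Slc46a3 1.69 and Cd180 1.80. The other genes below 0 were the weakly expressed Slc1a2 -8.07, and Susd2 -5.13, Ccnd2 -3.71, Synpo2 -2.11, Angptl2 -1.81, Irf4 -1.70, Herc6 -0.84, Ldha -0.82, Pfkl -0.79, Tgm2 -0.78, Tnfaip2 -0.55 and Mmp2 -0.46. Above 0 were the proliferation genes Ccna2 2.45 and Top2a 1.91, the sterol gene Hmgcs1 1.19, and Klk1b11 2.54, Lrrc14b 2.44 and Pparg 1.05.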

How the results depend on the processing

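In knockout cells the samples that enter the fit mattered most for the number of calls. With all 18 libraries 242 genes passed (67 higher, 175 lower, 89 by at least 2-fold; 1720 at an unadjusted p below 0.05), 241 of them shared with the 2513 and in the same direction, and 54 of the 85 described genes that had passed lost their call. The fold changes of the described genes hardly moved (Nqo1 0.98 and 0.99, Cxcl3 -1.70 and -1.69 in the 6 and 18 libraries). Among the added libraries, wild-type water replicate 3 stood apart too: Gclm read 142, 172 and 787 CPM and Cxcl3 2.83, 11 and 301 CPM in water replicates 1, 2 and 3. Its part in the lost calls was not tested. Tested against 1.2-fold, 656 passed (206 higher, 450 lower). RLE scaling (2509 genes), no filter (2573), a filter at 1 CPM (2477), voom (2482), DESeq2 (2130) and the 9 knockout libraries (2622) stayed within 1.5 times, and calls shared with the main ones had the same direction. Leaving out 1 library gave 1788 to 2407 genes (815 to 1131 higher, 973 to 1276 lower, 235 to 318 by at least 2-fold). Tnf, called in none of these, ran from -0.0383 (without MDP replicate 2, the sign reversed, adjusted p = 0.803) to 0.147 (without MDP replicate 3).

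The genotype difference passed for 1511 genes with all 18 libraries (721 above 0, 790 below). Leaving out 1 library gave 1519 to 4582 (696 to 2358 above 0, 807 to 2224 below): 4582 without wild-type GM replicate 2, and, over 1.5 times fewer, 1538 without knockout GM replicate 2, 1521 without knockout GM replicate 3 and 1519 without knockout MDP replicate 3.

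Same-numbered GM and MDP replicates did not deviate together (correlations -0.025, 0.00053 and -0.0035 across genes), and no library correlated best with its own number. Whether a shared number marks a shared mouse or culture is not stated, and correlations among 3 libraries per group cannot settle it. With the replicate number as a block 2240 genes passed (1026 higher, 1214 lower, 275 by at least 2-fold), Itgb3 missed the threshold (adjusted p = 0.058), and the genotype difference passed for 2219 genes. Slc1a2 and Cfb are weakly expressed, and the part of sequencing depth in their values was not tested.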
